A study of Mus musculus with 4 samples.

Results

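The genes described are 10 genes of the NF-kB system, 5 that encode its Rel subunits (Nfkb1, Nfkb2, Rel, Rela and Relb) and 5 that encode inducible inhibitors and modulators of it (Nfkbia, Nfkbid, Nfkbiz, Tnfaip3 and Bcl3). They were chosen by gene symbol, and all 10 were found among the 19088 genes of the deposited table. Bulk RNA was measured in ILC2s, the group 2 innate lymphoid cells, which reside in tissues and secrete cytokines such as IL-5 and IL-13. They were sorted from epididymal adipose tissue of male C57BL/6 mice aged 8 weeks, with 2000 to 4000 cells used for each RNA extraction. The WT group holds 2 libraries of genotype R5/+, and the KO group 2 libraries of genotype R5/+Stk11f/f, in which Stk11 is floxed. Both groups carry the R5 allele. The labels do not spell out R5 or the cells in which Stk11 was deleted, and they do not say whether the 2 libraries of a group came from separate mice, so the p-values reflect only how far these libraries differ, which may be technical. By its title, the study concerns the role of LKB1, the kinase encoded by Stk11, in adipose ILC2s.

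NF-kB is a family of dimeric transcription factors that share the Rel homology domain. In resting cells the dimers are held in the cytoplasm by IkB proteins. When IL-33, the alarmin that activates ILC2s, binds its receptor, the adaptor MyD88 and the kinases TAK1 and IKK lead to the breakdown of the inhibitor IkB-alpha, and dimers of RelA or c-Rel with p50 enter the nucleus. A slower, non-canonical branch, driven by some TNF-family receptors, processes p100 to p52, the partner of RelB. Several of the genes switched on encode brakes or modulators of the same pathway, which makes them a readout of recent signalling as well as parts of it.

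Levels are given in FPKM, a fragment number corrected for transcript length and library depth, which allows genes to be compared per length. Stk11 itself measured 43.1 and 39.1 FPKM in the WT libraries against 31.9 and 16.6 FPKM in the KO libraries. It was lower in both KO libraries without passing the threshold (limma, adjusted p = 0.548), and the table gives no value for the floxed exons alone. All 13 ILC2 markers examined were present at 44.2 FPKM or more in every library. Their log2 fold change was positive in 5 of the 13, and 0 passed the threshold. The largest increase was that of Icos, at 136 and 120 FPKM in the WT libraries against 273 and 280 FPKM in KO (limma, adjusted p = 0.118). The largest decrease was that of Arg1, at 575 and 835 FPKM in the WT libraries against 424 and 294 FPKM in KO (limma, adjusted p = 0.229). The 9 macrophage and monocyte markers found summed to 0.69 and 7.07 FPKM in the WT libraries against 2.32 and 13.6 FPKM in KO, with Csf1r and Fcgr1 listed at 0 in all 4. The 8 T cell markers summed to 240 and 278 FPKM in the WT libraries against 202 and 199.8 FPKM in KO. Most of this was Cd3g, at 189 to 267 FPKM, and Bcl11b was at 4.52 to 9.13 FPKM, Cd3e at 0.24 to 4.91 FPKM and Cd5 at 0 throughout. The 5 B cell markers moved with the groups at a low level, summing to 5.76 and 0.19 FPKM in the WT libraries against 20.3 and 10.4 FPKM in KO. Among them Cd79a measured 1.69 and 0 FPKM in the WT libraries against 11.2 and 6.64 FPKM in KO (limma, unadjusted p = 0.00351, adjusted p = 0.222), while Pax5 was at 0.01 FPKM or less in every library. Markers of mast cells and basophils were present and moved with the groups. The summed level of the 11 markers found was 13439 to 16120 FPKM in WT and 25187 to 39431 FPKM in KO, none of the 11 was at 0 in a library, and all 11 had a positive log2 fold change, of which 2, Tpsb2 and Mcpt4, which encode granule proteases, passed the test. Red blood cell markers summed to 53232 and 84123 FPKM in WT and to 67479 and 26662 FPKM in KO. The 9 adipocyte and stroma markers summed to 146 and 10.1 FPKM in the WT libraries against 25.4 and 29.5 FPKM in KO. Most of the sum in WT replicate 1 was Fabp4, at 139 FPKM. The 6 NK cell markers summed to 1.90 and 0.09 FPKM in the WT libraries against 5.09 and 0.10 FPKM in KO. Mast cells also use NF-kB, and the part of any of these cell types in the values below was not tested. The KO library with the higher mast cell sum, replicate 2, had the lower value of 9 of the 10 NF-kB genes. It also had the lower red blood cell sum, and the part of either cell type in this order was not tested. In bulk RNA of this kind, fewer cells of a type and less RNA per cell cannot be told apart.

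On GRCm38.p6, Relb (gene 19698) lies on chromosome 7 from 19606217 to 19629438, Bcl3 (gene 12051) on chromosome 7 from 19808462 to 19822824 and Nfkbid (gene 243910) on chromosome 7 from 30421731 to 30428749. Rela (gene 19697) lies on chromosome 19 from 5637442 to 5648134 and Nfkb2 (gene 18034) on the same chromosome from 46300994 to 46312400. Nfkb1 (gene 18033) lies on chromosome 3 from 135584655 to 135691969, Rel (gene 19696) on chromosome 11 from 23736847 to 23770969, Nfkbia (gene 18035) on chromosome 12 from 55489409 to 55492647, Tnfaip3 (gene 21929) on chromosome 10 from 19000910 to 19015410 and Nfkbiz (gene 80859) on chromosome 16 from 55811375 to 55838954. All 10 are annotated as protein-coding. In GENCODE M21 the exons of Nfkb2 overlap those of Psd and of a long non-coding RNA on the opposite strand, and the exons of Bcl3 overlap those of an antisense RNA. Reads of such partners cannot be told apart where strand was not used. Psd was at 1.59 FPKM or less in every library, and the levels of the non-coding partners were not analysed here.

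Promoter sequences of some of these genes were searched for patterns of letters known from sites that NF-kB dimers bind. RefSeq windows on GRCm38.p6, from 250 bases before a transcript start to 50 bases after it, were held for 7 of the 10 genes, in 12 windows; Nfkb1, Relb and Nfkbiz had none. The general kappaB pattern, GGG and CC with any 5 bases between them, searched on both strands, was in all 12 windows, and also in 50.8% of all 32851 windows and in 66.3% of the 10200 windows of genes tested. Matches on opposite strands often overlap, since the reverse complement of the pattern is nearly the same. The kappaB site of the immunoglobulin kappa light chain enhancer is 1 form of that pattern. It was in 2 overlapping windows of Nfkb2, which share the same copy of it, and in no window of the other 6 genes. It was in 0.16% of all windows and in 0.21% of those of genes tested. A match is a description of the sequence, not of binding. Windows of 4 genes are shown, 5′ to 3′ on the gene's own strand with matches to the general pattern on either strand in capitals, because they cover the most abundant gene and, as given further on, 2 genes higher in both KO libraries and 1 gene lower in both. They are Nfkbia (minus strand, chr12:55492598-55492897), Nfkb2 (plus strand, chr19:46305445-46305744), Bcl3 (minus strand, chr7:19822706-19823005) and Tnfaip3 (minus strand, chr10:19015361-19015660).
Nfkbia: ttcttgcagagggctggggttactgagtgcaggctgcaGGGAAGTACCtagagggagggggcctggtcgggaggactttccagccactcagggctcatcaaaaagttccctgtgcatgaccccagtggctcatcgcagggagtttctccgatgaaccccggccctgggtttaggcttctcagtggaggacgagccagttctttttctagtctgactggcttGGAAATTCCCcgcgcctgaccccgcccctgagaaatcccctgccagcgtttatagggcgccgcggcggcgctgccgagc
Nfkb2: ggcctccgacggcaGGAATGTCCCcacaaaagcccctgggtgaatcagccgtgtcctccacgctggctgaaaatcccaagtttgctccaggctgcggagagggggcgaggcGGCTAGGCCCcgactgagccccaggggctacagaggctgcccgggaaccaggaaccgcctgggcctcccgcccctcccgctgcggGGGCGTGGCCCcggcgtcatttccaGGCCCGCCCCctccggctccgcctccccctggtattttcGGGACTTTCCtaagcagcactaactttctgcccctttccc
Bcl3: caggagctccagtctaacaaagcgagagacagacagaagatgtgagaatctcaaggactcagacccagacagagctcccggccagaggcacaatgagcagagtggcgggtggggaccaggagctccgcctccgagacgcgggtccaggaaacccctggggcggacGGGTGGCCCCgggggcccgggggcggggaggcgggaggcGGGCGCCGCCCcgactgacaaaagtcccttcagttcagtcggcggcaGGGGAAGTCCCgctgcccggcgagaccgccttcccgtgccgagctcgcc
Tnfaip3: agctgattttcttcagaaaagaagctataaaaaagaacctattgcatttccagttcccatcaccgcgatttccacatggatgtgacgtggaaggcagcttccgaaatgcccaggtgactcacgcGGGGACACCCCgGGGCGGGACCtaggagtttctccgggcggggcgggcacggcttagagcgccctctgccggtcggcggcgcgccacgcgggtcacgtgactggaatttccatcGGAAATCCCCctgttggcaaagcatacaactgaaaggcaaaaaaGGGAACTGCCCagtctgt
In the Nfkbia window the match nearest the start lies 29 to 20 bases before it and reads GGGAATTTCC on the opposite strand. In the Tnfaip3 window a match of GGGGATTTCC on the opposite strand lies 12 to 3 bases before the start. In Bcl3 matches lie just after the start, the first GGGGAAGTCC, and in Nfkb2 the last match, the form of the immunoglobulin kappa enhancer, begins at base 10 counted from the start.

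The 10 genes spanned a wide range of levels, and 3 of the inhibitors were the most abundant. Nfkbia, which encodes IkB-alpha, was the most abundant of the 10 in every library and ranked 28 among the 9818 genes tested by its mean over the 4 libraries. Tnfaip3 ranked 298, Nfkbiz 321, Nfkb1 482 and Nfkbid 532. Rela ranked 1053, Rel 1196, Relb 1420 and Nfkb2 1444, and Bcl3 was the lowest at rank 4761. Neighbours in this order were not all separated: Nfkb1 exceeded Nfkbid in 3 of the 4 libraries and fell below it in KO replicate 1, and Rel exceeded Rela only in WT replicate 1. Tnfaip3 exceeded Nfkbiz in all 4 libraries, with a Nfkbiz to Tnfaip3 ratio of 0.879 to 0.967.

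**Figure D1:**
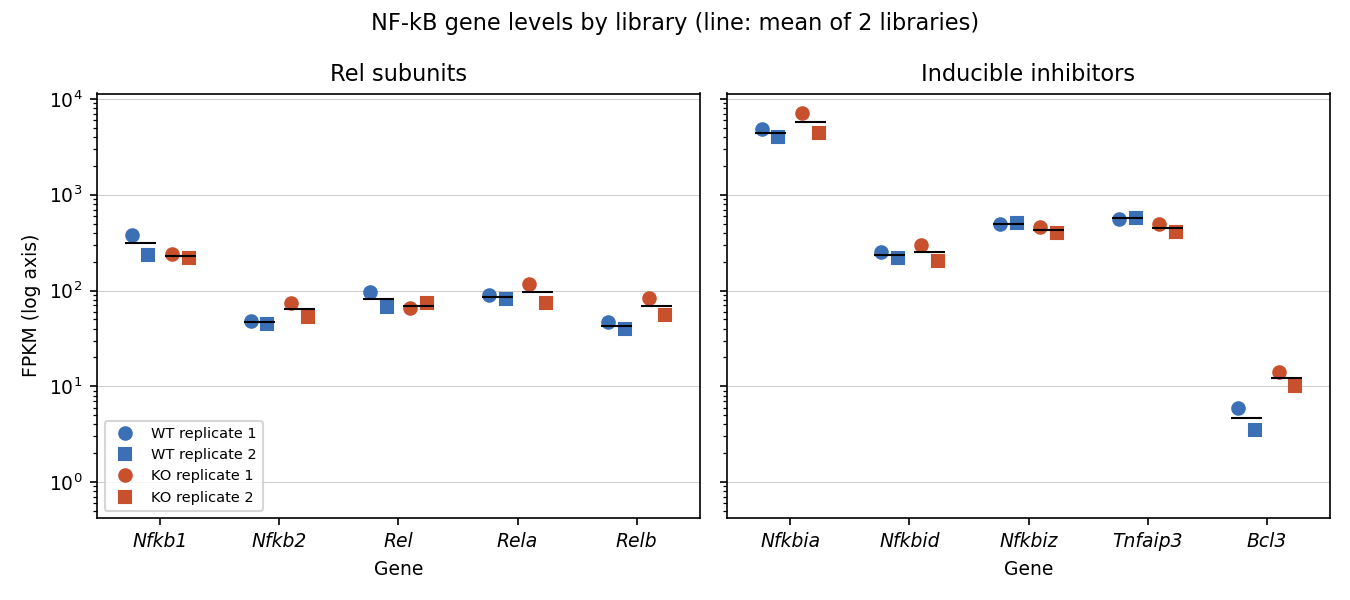
FPKM of each NF-kB gene in each library, on a log axis, with Rel subunits on the left and inducible inhibitors on the right. Blue points are WT and red points KO, circles are replicate 1 and squares replicate 2, and the short lines are means of 2 libraries. Nfkbia lies between 4028 and 7175 FPKM and Bcl3 between 3.52 and 14.05 FPKM.

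Between KO and WT, none of the 10 genes passed the test over all genes (0 of 10, limma on log2(FPKM + 1), threshold of 0.05 on the adjusted p). The smallest adjusted p was 0.470, for Bcl3, which was also the only one of the 10 with an unadjusted p under 0.05. Over all 9818 genes tested 0.214% passed, 0.163% higher and 0.0509% lower in KO, and 9.18% had an unadjusted p under 0.05. In 5 of the 10 genes the KO libraries both lay on the same side of both WT libraries, 3 above and 2 below, which is close to the 39.1% of all genes tested for which this held (18.5% above and 20.6% below). The median log2 fold change was 0.10 over the 10 genes and -0.01 over all genes tested. The 95% intervals of the log2 fold changes were wide, and a change of 2-fold, 1 on the log2 scale, lay inside the interval of Nfkb2, Relb and Bcl3.

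Among the subunits, Relb and Nfkb2, which together form the RelB and p52 dimer of the non-canonical branch, were higher in both KO libraries than in either WT library. Relb measured 46.5 and 39.5 FPKM in the WT libraries against 83.0 and 56.0 FPKM in the KO libraries. The fitted log2 fold change was 0.66 (SE 0.30, 95% interval -0.03 to 1.35; limma, adjusted p = 0.546). It lay between 0.38, without KO replicate 1, and 0.94, without KO replicate 2. Nfkb2, which encodes p100 and its product p52, measured 48.0 and 44.9 FPKM in the WT libraries against 74.0 and 53.0 FPKM in the KO libraries. The fitted log2 fold change was 0.42 (SE 0.29, 95% interval -0.24 to 1.08; limma, adjusted p = 0.718). Without KO replicate 1 it was 0.19, and without KO replicate 2 it was 0.66. For both genes the order was KO replicate 1, KO replicate 2, WT replicate 1 and WT replicate 2, and the groups did not overlap.

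The subunits of the canonical branch did not separate the groups. Nfkb1, which encodes p105 and its product p50, measured 383 and 237 FPKM in the WT libraries against 239.7 and 218 FPKM in the KO libraries. WT replicate 1 was high and the other 3 libraries were close together, so the log2 difference of -0.40 (SE 0.26; limma, adjusted p = 0.698) became -0.05 without WT replicate 1 and -0.74 without WT replicate 2. Rela, which encodes p65, the main transactivating subunit, measured 90.25 and 81.8 FPKM in the WT libraries against 117 and 74.9 FPKM in the KO libraries. The KO libraries lay on either side of the WT libraries, and the log2 fold change was 0.12 (SE 0.28; limma, adjusted p = 0.940). Rel, which encodes c-Rel, a lymphocyte-enriched subunit, measured 95.7 and 67.8 FPKM in the WT libraries against 65.0 and 73.4 FPKM in the KO libraries, with overlapping groups and a log2 difference of -0.22 (SE 0.28; limma, adjusted p = 0.864). Rela had a log2 fold change of -0.20 without KO replicate 1 and Rel one of 0.03 without WT replicate 1, so neither direction held with every library left out.

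The inhibitors differed from each other. Nfkbia, whose product holds the dimers in the cytoplasm and is resynthesized after each round of signalling, measured 4849 and 4028 FPKM in the WT libraries against 7175 and 4441 FPKM in the KO libraries. Only KO replicate 1 lay above both WT libraries, and the log2 difference of 0.35 (SE 0.22, 95% interval -0.14 to 0.84; limma, adjusted p = 0.667) became 0.01 without that library and 0.70 without KO replicate 2. Tnfaip3, which encodes the ubiquitin-editing enzyme A20, measured 563 and 568 FPKM in the WT libraries against 489 and 411 FPKM in the KO libraries. It was lower in both KO libraries, with a log2 difference of -0.33 (SE 0.18, 95% interval -0.75 to 0.08; limma, adjusted p = 0.607) that lay between -0.46 and -0.21 with a library left out.

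The other 3 encode atypical IkB proteins that act in the nucleus on p50 or p52 dimers and can raise as well as restrain transcription of chosen targets. Nfkbiz, which encodes IkB-zeta, measured 495 and 502 FPKM in the WT libraries against 459 and 397 FPKM in the KO libraries, lower in both KO libraries, with a log2 difference of -0.22 (SE 0.18; limma, adjusted p = 0.773) that lay between -0.33 and -0.12 with a library left out. Nfkbid, which encodes IkB-NS, measured 252 and 218 FPKM in the WT libraries against 297 and 204 FPKM in the KO libraries, with the WT libraries between the KO libraries and a log2 difference of 0.07 (SE 0.24; limma, adjusted p = 0.963). Bcl3, whose product joins p50 or p52 dimers as a coactivator or corepressor, had the largest difference of the 10. It measured 5.88 and 3.52 FPKM in the WT libraries against 14.05 and 10.1 FPKM in the KO libraries, a mean of 4.70 ± 1.67 against 12.1 ± 2.79 FPKM (SD, n = 2 each). The groups did not overlap, and the log2 fold change was 1.21 (SE 0.46, 95% interval 0.16 to 2.27; limma, adjusted p = 0.470 over all genes). At this low level the SE was the widest of the 10, and the value lay between 0.91 and 1.52 with each library left out.

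**Figure D2:**
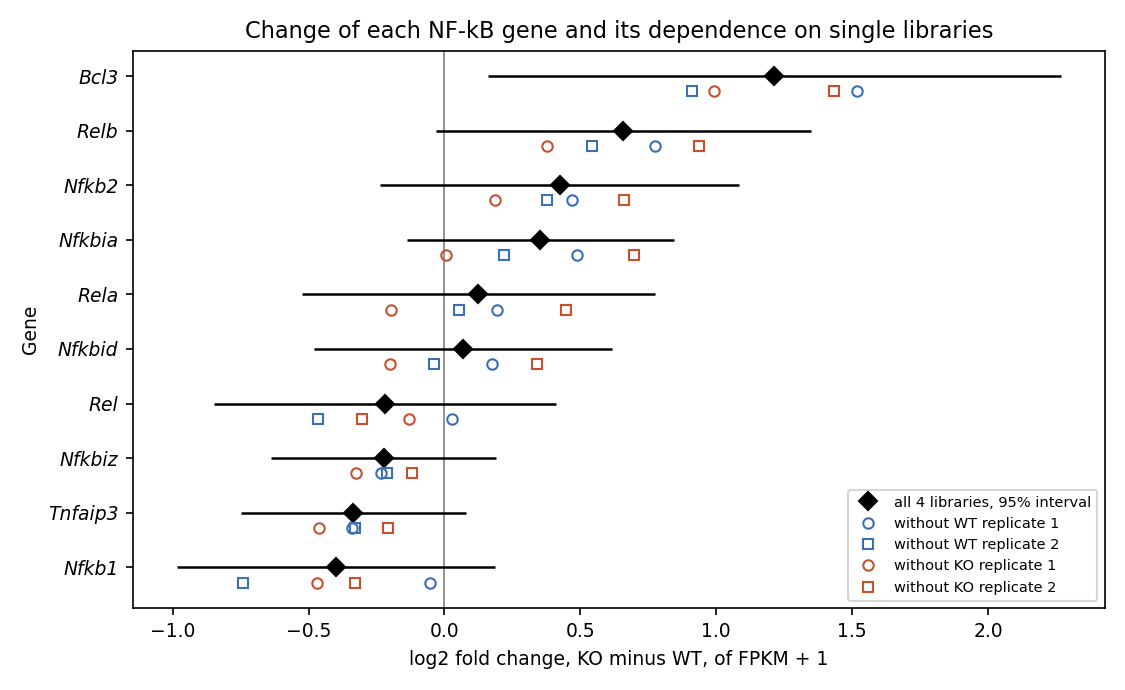
The log2 fold change, KO minus WT, of FPKM + 1 for each NF-kB gene (black diamonds) with its 95% interval (lines), and the same value with 1 library left out (open symbols, coloured by the group of the library left out). Bcl3 and Relb are positive and Tnfaip3 and Nfkbiz negative with each library left out, while Rela, Nfkbid and Rel have values on both sides of 0.

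The libraries within a group also differed in these genes together. KO replicate 1 exceeded KO replicate 2 in 9 of the 10, with a median difference of 0.46 on the log2 scale, against 54.6% of all genes tested and a median of 0.07. WT replicate 1 exceeded WT replicate 2 in 8 of the 10, with a median difference of 0.22, against 56.2% and 0.10 over all genes tested. The summed FPKM of the 10 genes was 6830 and 5792 in the WT libraries against 9014 and 5938 in KO, and most of it was Nfkbia. KO replicate 1 thus stood highest, and KO replicate 2 lay within the WT range.

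Ratios between genes of the same library do not depend on how libraries are scaled to each other. Nfkb1 made up 57.7% and 50.3% of the summed FPKM of the 5 subunits in WT and 41.4% and 45.8% in KO, a mean of 54.0 ± 5.21% against 43.6 ± 3.12% (SD, n = 2 each). Relb made up 7.02% and 8.38% in the WT libraries against 14.3% and 11.8% in KO, and Nfkb2 made up 7.24% and 9.53% in the WT libraries against 12.8% and 11.2% in KO. The groups did not overlap for these 3 shares, each with an exact two-sided permutation p of 0.333, the smallest that 2 libraries against 2 can give. They overlapped for Rel, at 14.4% and 14.4% in the WT libraries against 11.2% and 15.5% in KO, and for Rela, at 13.6% and 17.4% in the WT libraries against 20.3% and 15.8% in KO. In summed FPKM the 5 inhibitors together exceeded the 5 subunits by a ratio of 9.30 and 11.3 in the WT libraries against 14.6 and 11.5 in KO. The groups did not overlap but differed little between WT replicate 2 and KO replicate 2 (exact two-sided permutation p = 0.333). Nfkbia alone made up 78.6% and 75.7% of the inhibitor sum in the WT libraries against 85.1% and 81.3% in KO. The ratio thus mostly follows Nfkbia and does not describe the inhibitors as a group.

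Some ratios between paired members, chosen after their values were seen, were close within a group. Relb stood to Rela at 0.516 and 0.482 in the WT libraries against 0.707 and 0.748 in KO, a mean of 0.499 ± 0.023 against 0.728 ± 0.028 (SD, n = 2 each). The difference of 0.23 lay between 0.21 and 0.25 with each library left out. Nfkb2 stood to Nfkb1 at 0.125 and 0.189 in the WT libraries against 0.309 and 0.244 in KO. Nfkb2 exceeded Relb in both WT libraries and Relb exceeded Nfkb2 in both KO libraries, with Nfkb2 to Relb ratios of 1.03 and 1.14 in the WT libraries against 0.891 and 0.946 in KO. Nfkbia stood to Tnfaip3, both of them brakes on the canonical branch, at 8.61 and 7.09 in the WT libraries against 14.7 and 10.8 in KO. Bcl3 stood to Nfkb1 at 0.0154 and 0.0148 in the WT libraries against 0.0586 and 0.0464 in KO. The exact two-sided permutation p of the Relb to Rela, Nfkb2 to Nfkb1 and Bcl3 to Nfkb1 ratios was 0.333 each, the smallest possible.

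**Figure D3:**
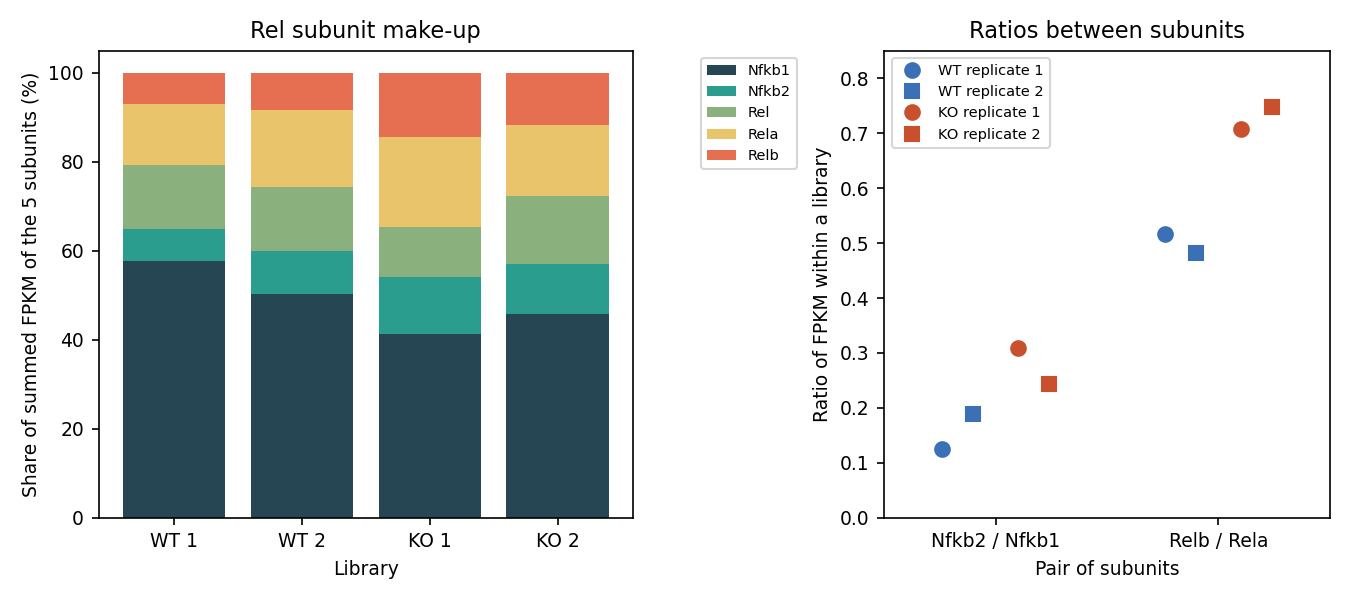
Left, the share of each Rel subunit in the summed FPKM of the 5 subunits, in percent, for each library. Right, the ratio of Nfkb2 to Nfkb1 and of Relb to Rela FPKM within each library, in blue for WT and red for KO. The share of Nfkb1 is 50.3% or more in WT and 45.8% or less in KO, and the Relb to Rela ratio is at most 0.516 in WT and at least 0.707 in KO.

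Over all pairs of the 10 genes, the within-library ratio did not overlap between the groups for 35 of 45, or 77.8%. Over the 44987355 pairs of the 9486 tested genes above 0 FPKM in all 4 libraries it did not overlap for 38.3%. The 45 ratios reuse 10 genes and are not independent. The pairs of all genes were not matched to the 10 genes by level. Nor were they matched by how far genes differ together between libraries of a group, as the 10 genes did. The percentages are therefore not like for like, and the part of these features in the gap was not tested. The ratios of Bcl3 and of Relb to the other 9 genes were all without overlap, those of Rel were so in 4 of 9 and those of Nfkb1 in 5 of 9. Without Bcl3, 26 of 36 pairs, or 72.2%, did not overlap. The count was added after the values were seen, and it was also 35 with 1 FPKM added to each value.

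**Figure D4:**
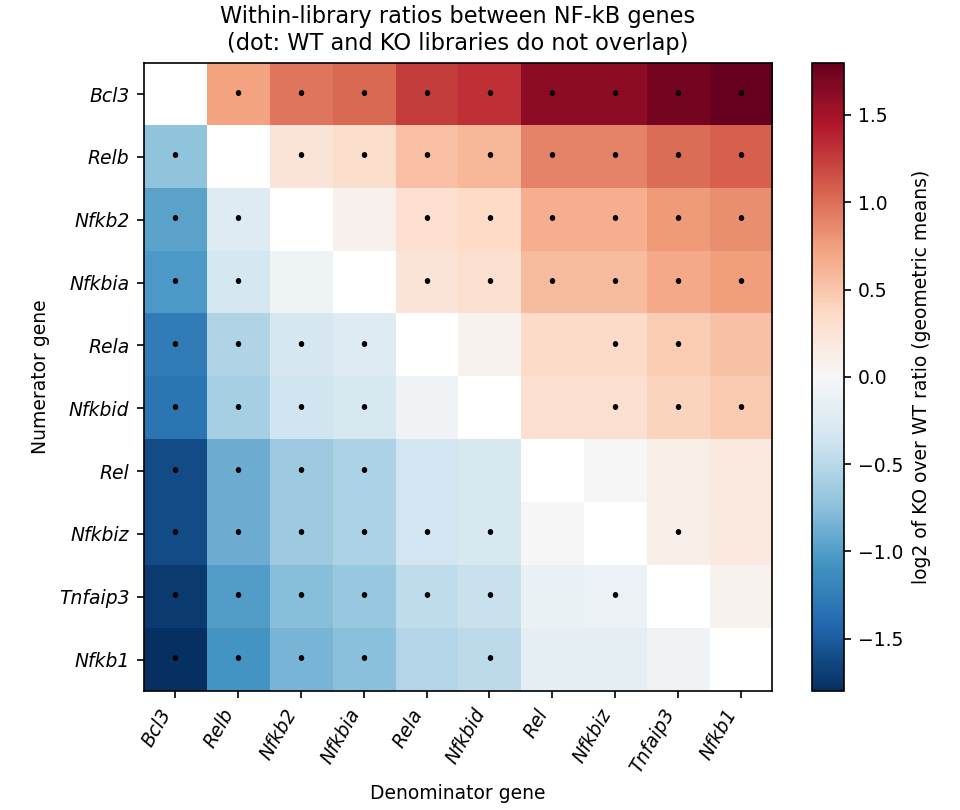
The log2 of the KO over WT value of each within-library ratio, from geometric means over 2 libraries, with the numerator gene in rows and the denominator gene in columns. Red marks ratios higher in KO and blue ratios lower in KO, and a dot marks pairs whose WT and KO libraries do not overlap, which holds for 35 of the 45 pairs. Bcl3 and Relb carry a dot against every other gene.

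Upstream of the members, 0 of the 11 tested genes of the IL-33 receptor and its adaptors passed the test, and 0 had an unadjusted p under 0.05 in limma, with a median log2 fold change of -0.15. Il1rl1, the IL-33 receptor, measured 290.1 and 250.4 FPKM in the WT libraries against 215 and 219 FPKM in the KO libraries, lower in both KO libraries (log2 fold change -0.31, SE 0.20; limma, adjusted p = 0.699). Myd88, the adaptor, measured 14.3 and 17.1 FPKM in the WT libraries against 20.8 and 21.0 FPKM in the KO libraries, higher in both. Peli1, a ubiquitin ligase, measured 63.4 and 47.2 FPKM in the WT libraries against 46.2 and 43.4 FPKM in the KO libraries. Sigirr, an inhibitory receptor of this family, measured 25.5 and 17.2 FPKM in the WT libraries against 44.5 and 23.7 FPKM in the KO libraries, with overlapping groups.

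Of 14 tested genes of the TAK1 and IKK complexes, 0 passed in limma, and 1, Bcl10, had an unadjusted p under 0.05, with a median log2 fold change of -0.01. The groups did not overlap for 6 of the 14, or 42.9%, against 39.1% of all genes tested. Of these 6 genes, 1 was higher and 5 were lower in KO. Bcl10, an adaptor that links CARD proteins to IKK, measured 27.4 and 21.3 FPKM in the WT libraries against 45.3 and 55.1 FPKM in the KO libraries, a log2 difference of 1.02 (SE 0.31; limma, adjusted p = 0.332). Its partner Malt1, a paracaspase that cleaves A20, measured 42.7 and 28.5 FPKM in the WT libraries against 17.8 and 25.4 FPKM in the KO libraries. The groups did not overlap for either gene, and the directions were opposite. Tab2, a TAK1 partner, measured 35.7 and 33.8 FPKM in the WT libraries against 29.4 and 20.9 FPKM in the KO libraries, and Rbck1, a subunit of the linear ubiquitin ligase, overlapped at 19.4 to 37.7 FPKM.

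Among 10 tested genes listed for the non-canonical branch and TNF-family receptors 0 passed in limma. Of these 1, Birc2, had an unadjusted p under 0.05 in limma, and the median log2 fold change was 0.14. The list mixes receptors, adaptors, ubiquitin ligases and a kinase, so its median gives no direction for the branch. Tnfrsf18, the receptor GITR, was the most abundant at 3712 and 3662 FPKM in the WT libraries against 4072 and 3838 FPKM in the KO libraries. Birc3, the ubiquitin ligase cIAP2, measured 181 and 165 FPKM in the WT libraries against 208 and 186 FPKM in the KO libraries. Tnfrsf25, the receptor DR3, measured 56.4 and 53.1 FPKM in the WT libraries against 91.2 and 64.5 FPKM in the KO libraries. These 3 genes were higher in both KO libraries and did not pass, and Tnfrsf4, the receptor OX40, overlapped at 44.1 to 80.05 FPKM. Of the 15 tested genes for other IkB proteins and brakes 0 passed in limma, and 1, Pdlim2, had an unadjusted p under 0.05, with a median of 0.04. Zfp36, an RNA-binding protein that destabilizes cytokine mRNA, overlapped at 522 to 847 FPKM. Nfkbie, which encodes IkB-epsilon, overlapped at 84.6 to 121 FPKM, and Tax1bp1, a partner of A20, at 87.05 to 99.5 FPKM. Commd1, a regulator of RelA turnover, measured 114 and 149 FPKM in the WT libraries against 165 and 214 FPKM in the KO libraries, higher in both.

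Among 29 tested genes known as NF-kB targets, 2 rose and 1 fell (limma, adjusted p under 0.05), while the log2 fold change was positive in 13 of the 29 and negative in 16 (median -0.11). These targets were listed with earlier results on some of them known, so the count is no independent evidence. Plaur, the urokinase receptor, rose from 119 and 90.0 FPKM in WT to 447 and 334 FPKM in KO (log2 fold change 1.89, SE 0.25; limma, adjusted p = 0.0363). Tnfrsf9, the costimulatory receptor 4-1BB, rose from 101 and 59.96 FPKM to 286 and 292 FPKM (1.88, SE 0.28; limma, adjusted p = 0.0475). Csf2, which encodes GM-CSF, fell from 13826 and 17024 FPKM to 7018 and 8086 FPKM (-1.03, SE 0.14; limma, adjusted p = 0.0363). An unadjusted p under 0.05 in limma was found in 12 of the 29, or 41.4%, against 9.18% of all genes tested. The groups did not overlap for 17 of 29, or 58.6%, 7 higher and 10 lower in KO, against 39.1%. Both counts include Bcl2a1a, Bcl2a1b and Bcl2a1d, near-identical genes among which reads may be split, so these may not count as separate targets. The 3 calls ended with a pseudocount of 0.1, with no filter on low values, with quantile or median-ratio scaling, with limma without trend or robust moderation, with a replicate block, and with each of the 4 libraries left out in turn. Mast cell marker sums moved with the groups as given above.

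Further targets are given because of their values. Ptgs2, which encodes cyclooxygenase-2, measured 14.2 and 8.93 FPKM in the WT libraries against 52.6 and 41.0 FPKM in the KO libraries (limma, adjusted p = 0.111). Ccl1, a chemokine, measured 3249.69 and 3721 FPKM in the WT libraries against 1556 and 2156 FPKM in the KO libraries (limma, adjusted p = 0.129). Bcl2a1b and Bcl2a1d, near-identical survival genes among which reads may be split, stood at 457 and 692 FPKM against 146 and 285 FPKM and at 1355 and 1741 FPKM against 471 and 935 FPKM (limma, adjusted p = 0.172 and 0.213). In each of these 4 genes the groups did not overlap. These targets differed in both directions. Whether targets differed more than the subunits and inhibitors was not tested.

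**Figure D5:**
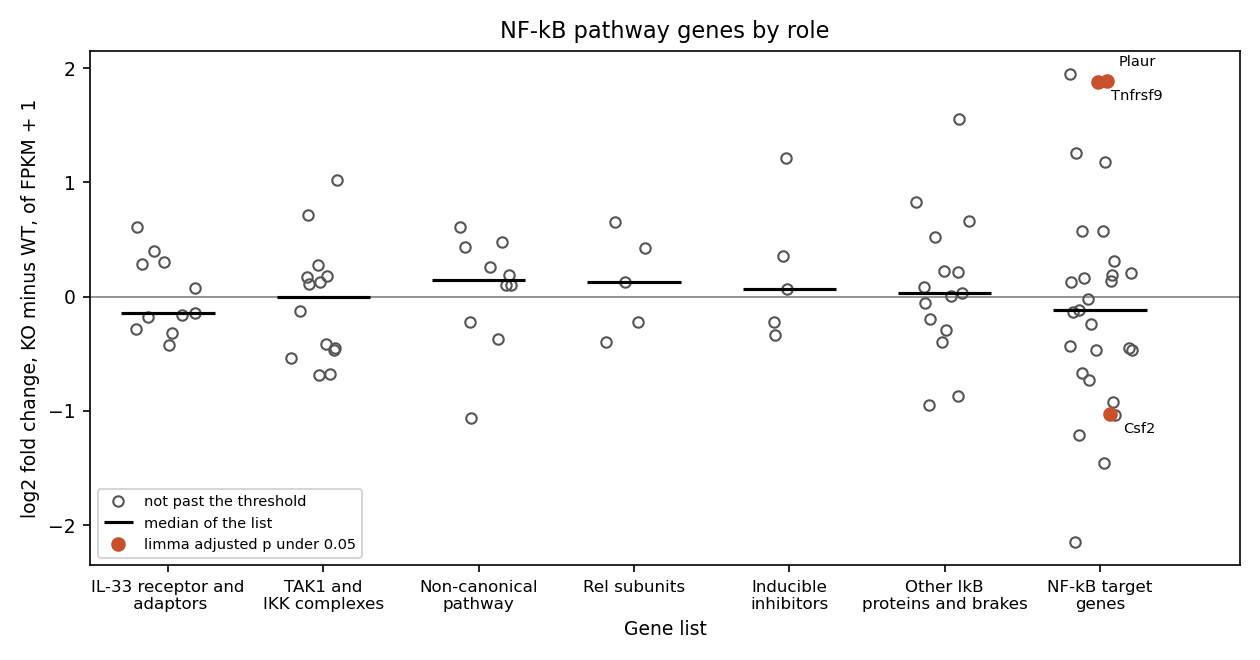
The log2 fold change, KO minus WT, of FPKM + 1 for every tested gene of 7 lists ordered from the receptor to the targets, with the median of each list as a line. Filled points mark the 3 genes past the threshold (Plaur, Tnfrsf9 and Csf2), all among the targets, and open points the others.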

How the data were processed

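The authors deposited 1 table of FPKM values, rounded to 2 decimals, with a column for each of the 4 libraries. Bowtie2, RSEM and DESeq2 are named with GRCm38.p6, per the submitters' processing notes, without roles or settings. FPKM shares a library's total among its genes, so a shift in abundant genes moves the others, and RSEM, if it made the values, divides reads among similar genes. No counts were given. Steps between low FPKM values gave about 18400000 to 21700000 fragments per library with a partial match (score 0.348 to 0.480, where 1 is a full match), so fragments were not recovered, no count model was run and no counting intervals are given.

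Values were tested here as log2(FPKM + 1) with limma 3.58.1 (R 4.3.3; trend and robust moderation) over the 9818 genes whose mean reached 1 FPKM, with group as the term and Benjamini-Hochberg adjustment over all of them. Fold changes on this scale understate those of low genes. The code was tested on simulated data. Of 19088 gene identifiers, 19034 matched the RefSeq table that gave coordinates; overlaps came from GENCODE M21. Within-library shares, the inhibitor to subunit ratio and the Relb to Rela, Nfkb2 to Nfkb1 and Bcl3 to Nfkb1 ratios were compared by exact permutation. The other within-library ratios were only checked for overlap between the groups.

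The members and lists were chosen with earlier results of these data known. Named by rule were the 10 members, Stk11, Il1rl1 and, in each pathway list, the genes past the threshold or else the 4 of highest level. Ptgs2, Ccl1, Bcl2a1a, Bcl2a1b, Bcl2a1d and the genes between Relb and Bcl3 were named after their values were seen. Alternatives were another pseudocount, filters, scalings, variance settings, a replicate block and leaving out each library.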

Additional observations from a re-analysis of the deposited data

How the results depend on the processing

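None of the 10 NF-kB genes passed the test under any of the 14 alternatives (limma, smallest adjusted p 0.402 to 0.882). Of 140 values of the 10 genes under these alternatives 136 kept their direction. The other 4 came from leaving out a library: Rel (-0.46 to 0.027 over the libraries left out) was positive without WT replicate 1, Rela (-0.20 to 0.45) was negative without KO replicate 1, and Nfkbid (-0.20 to 0.34) was negative without KO replicate 1 and, at -0.04, without WT replicate 2. The median over the 10 genes (0.10) lay between -0.16 and 0.39 with a library left out, lowest without KO replicate 1 and highest without KO replicate 2. TPM scaling moved the median of all genes by 0.11, as did scaling without mast and red blood cell markers. The median of the 10 genes was then 0.22 and 0.23, and all 10 kept their direction.

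The 21 genes past the threshold over all genes became 0 with quantile normalization, with the replicate block, with limma without trend or robust moderation, with all low genes kept and with 0.1 as the pseudocount, 1 with median-ratio scaling, and 0 to 1 with a library left out. In each of these settings the calls among the NF-kB targets went from 3 to 0. With the other 4 settings 20 to 25 genes passed. The replicate numbers are not tied to a pairing by the labels, and the differences between same-numbered libraries correlated at 0.025 over 9818 genes; no call on the 10 genes changed with the block.

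Medians of the pathway lists moved by more than the spread between libraries as follows. The TAK1 and IKK list was at -0.27 with the filter of 5 FPKM in 2 libraries. The non-canonical list was at 0.27 with TPM scaling, 0.22 with quantile normalization, 0.24 with scaling without the 20 highest genes and 0.27 with scaling without mast and red blood cell markers. The list of other brakes was at 0.15 with TPM scaling, 0.12 without the 20 highest genes and 0.15 without those markers. With a library left out, the medians ranged from -0.16 to 0.20 for the IL-33 receptor list, from -0.35 to 0.049 for TAK1 and IKK, from -0.052 to 0.17 for the other brakes and from -0.44 to 0.10 for the targets, so each of the 4 took both signs. The cause was not tested. With 2 libraries a group, the 95% intervals of 9 of the 10 genes included 0, which does not show that they did not differ.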

Other observations

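Relb and Bcl3 both lie on chromosome 7, with 179023 bases and other genes between them, and both were higher in both KO libraries. Of the 16 RefSeq genes of this stretch, both included, 7 are in the table and 5 were tested, which leaves Apoe, Tomm40 and Clptm1 between them. The stretch was picked after these values were seen, so they are a description only. Apoe, which encodes a lipid-carrying apolipoprotein, lies between them on chromosome 7 from 19696244 to 19701310 and measured 92.2 and 69.7 FPKM in the WT libraries against 264 and 351 FPKM in the KO libraries (limma, adjusted p = 0.0363). Tomm40, a subunit of the mitochondrial import pore, measured 6.82 and 7.70 FPKM in the WT libraries against 7.75 and 12.75 FPKM in the KO libraries, so that the nearest libraries of the groups were close together. Clptm1 overlapped, at 15.4 and 6.55 FPKM in the WT libraries against 17.2 and 9.26 FPKM in the KO libraries.

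Some pathway genes outside the rule for named genes also differed without overlap between the groups. Birc2, which encodes the ubiquitin ligase cIAP1, measured 56.6 and 52.8 FPKM in the WT libraries against 36.1 and 18.1 FPKM in the KO libraries (limma, adjusted p = 0.409), while its paralog Birc3 was higher in both KO libraries. Traf2, also listed for the non-canonical branch, measured 18.7 and 13.9 FPKM in the WT libraries against 19.65 and 25.0 FPKM in KO. Traf3 measured 3.64 and 4.66 FPKM in the WT libraries against 8.42 and 5.48 FPKM in KO. In that list the groups did not overlap for 6 of 10 tested genes, or 60%, against 39.1% of all genes tested. Of these 6 genes, 5 were higher and 1 was lower in KO. Pdlim2, which encodes a ubiquitin ligase of RelA, measured 1.53 and 1.36 FPKM in the WT libraries against 8.61 and 4.35 FPKM in the KO libraries (limma, adjusted p = 0.421). Nfkbib, which encodes IkB-beta, measured 30.6 and 26.2 FPKM in the WT libraries against 57.9 and 35.6 FPKM in the KO libraries (limma, adjusted p = 0.575). These genes were picked after their values were seen.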
